A study of Mus musculus with 2 samples.

Results

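Vapa and Esyt2 encode proteins of the endoplasmic reticulum (ER) that hold it close to other membranes, and both genes gave circular RNAs (circRNAs) in crypts of the small intestine of wild-type mice. All rows of a deposited circRNA table whose gene name, divided at commas, contained Vapa or Esyt2 were taken, which gave 3 of the 1132 listed circRNAs, 1 of Vapa and 2 of Esyt2. The pair of genes was chosen by name, after being selected on high levels of back-splice reads in these same libraries, so the levels below describe them and carry no test. The series held 1 group of 2 libraries, replicates 1 and 2, both from total RNA of wild-type small intestine with no treatment, strain, age or sort given. The sample titles call the material crypts, whereas the cell type entry calls it stem cells. The labels name no animal for either library, so the spread between the libraries, and any p-value for it, may be technical.

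Splicing makes a circRNA by connecting an exon's end with the beginning of that exon or of one before it, and back-splice reads are those that cross this connection. The ER touches the plasma membrane, endosomes, mitochondria and other organelles at contact sites, where proteins tether the membranes and move lipids between them. VAPA, a membrane protein anchored in the ER by its tail, binds partner proteins that carry a short FFAT motif through its amino-terminal MSP domain, and so recruits lipid transfer proteins such as oxysterol-binding proteins and the ceramide transporter. Extended synaptotagmin 2, the product of Esyt2, is anchored in the ER near its amino terminus, carries a lipid-binding SMP domain and reaches the plasma membrane through C2 domains. Both genes are broadly expressed, and in the crypt, the epithelial pocket where Paneth cells lie among stem and dividing cells, neither is a marker of a single cell type.

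The joins that define the 3 circRNAs are shown first, because each is the stretch that a back-splice read crosses. Each is printed in the sense of the transcript from GENCODE release M21 (GRCm38, the assembly also called mm10), with the last 40 bases of the donor exon in lower case and the first 40 bases of spliced sequence from exon 2 onward in capitals. The joins span chr17:65592291-65595054 on the minus strand for Vapa, and chr12:116317830-116324210 and chr12:116317830-116334256 on the plus strand for Esyt2.
Vapa exon 4 to exon 2, back-splice: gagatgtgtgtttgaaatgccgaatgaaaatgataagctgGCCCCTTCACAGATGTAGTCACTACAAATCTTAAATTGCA
Esyt2 exon 6 to exon 2, back-splice: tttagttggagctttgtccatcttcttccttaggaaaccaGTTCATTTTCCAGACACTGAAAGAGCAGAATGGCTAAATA
Esyt2 exon 7 to exon 2, back-splice: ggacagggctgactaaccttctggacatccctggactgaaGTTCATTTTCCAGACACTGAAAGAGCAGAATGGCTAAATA

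In the linear mRNA the same exon edges are joined to other partners, which is what separates a linear from a circular read. The linear joins of the same donor and acceptor sites are given with the downstream exon in capitals.
Vapa exon 1 to exon 2, linear: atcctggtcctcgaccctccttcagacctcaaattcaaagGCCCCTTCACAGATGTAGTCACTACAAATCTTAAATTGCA
Vapa exon 4 to exon 5, linear: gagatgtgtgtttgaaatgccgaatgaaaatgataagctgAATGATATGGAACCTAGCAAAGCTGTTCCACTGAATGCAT
Esyt2 exon 1 to exon 2, linear: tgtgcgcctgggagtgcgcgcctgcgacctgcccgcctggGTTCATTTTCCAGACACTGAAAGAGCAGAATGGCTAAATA
Esyt2 exon 6 to exon 7, linear: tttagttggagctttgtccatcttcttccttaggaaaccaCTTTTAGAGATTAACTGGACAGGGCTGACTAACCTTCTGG
Esyt2 exon 7 to exon 8, linear: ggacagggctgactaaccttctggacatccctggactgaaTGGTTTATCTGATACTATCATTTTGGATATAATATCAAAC
Both Esyt2 circRNAs began with the same bases, since they shared the start of exon 2, and they differed by the 56 bases of exon 7, at chr12:116334201-116334256.
Esyt2 exon 7: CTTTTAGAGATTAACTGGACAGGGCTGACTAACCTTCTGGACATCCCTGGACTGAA

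Replicate 1 held 3546 listed back-splice reads and replicate 2 held 4441, and 330 of the 1132 circRNAs had reads in both. Levels are given as CPM, the counts of a circRNA scaled to the sum of the listed counts of its library, and a single read equalled 282 CPM in replicate 1 and 225 CPM in replicate 2. Each circRNA is counted at 1 join whatever its length, so these levels were not divided by length. Of the marker genes for cell types, 6 of 8 enterocyte, 3 of 5 goblet and 3 of 5 immune genes had a listed feature, and 0 of 15 stem cell, 0 of 6 Paneth, 0 of 4 enteroendocrine, 0 of 3 tuft and 0 of 6 stroma and muscle genes did. Over all multi-exon protein-coding genes, 3.96% hosted a listed circRNA. The enterocyte genes summed to 118 reads in replicate 1 and 99 in replicate 2, the immune genes to 4 and 26 and the goblet genes to 9 and 0. Features with both ends at annotated splice sites numbered 2 for enterocyte, 3 for immune and 0 for goblet genes. Of all listed circRNAs, 89.0% had such ends. A gene can be expressed without a listed circRNA, so these counts are no check of the labelled cell type. Which cells held the circRNAs of Vapa and Esyt2 was not tested, and in bulk RNA fewer cells of a type and less RNA per cell cannot be told apart.

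Vapa (ENSMUSG00000024091) had a single listed circRNA, of the exon type and made of exons 2 to 4 of 6. It had 41 reads in replicate 1 and 53 reads in replicate 2. These counts were levels of 11562 CPM (95% exact Poisson interval 8297 to 15686) and 11934 CPM (8940 to 15610), a mean of 11748 ± 263 CPM (SD, n = 2). The libraries differed by less than their counting error, and the intervals overlapped almost wholly. The Vapa circRNA held 1.16% and 1.19% of all listed back-splice reads, and ranked 10 by mean level, 10 within replicate 1 and 8 within replicate 2. These intervals cover counting error only, since copies of 1 molecule made by PCR cannot be told from separate molecules.

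Esyt2 (ENSMUSG00000021171) had 2 listed circRNAs, both of the exon type, and nearly all of its reads lay in the shorter one. The circRNA of exons 2 to 6 of 22 had 22 reads in replicate 1 and 18 in replicate 2. Its levels were 6204 CPM (95% exact Poisson interval 3888 to 9393) and 4053 CPM (2402 to 6406), a mean of 5129 ± 1521 CPM (SD, n = 2). Replicate 1 was the higher library, within overlapping intervals. The rank was 22 by mean level, 18 within replicate 1 and 36 within replicate 2, so its place moved by more ranks between the libraries than that of Vapa.

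The longer Esyt2 circRNA, of exons 2 to 7, had 1 read in replicate 1 and 3 in replicate 2. Those counts corresponded to 282 CPM (95% exact Poisson interval 7.14 to 1571) and 676 CPM (139 to 1974), with a mean of 479 ± 278 CPM (SD, n = 2) and a rank of 444. Of 122 circRNAs with 4 reads in total, 18 had reads in both libraries, a number that the limit at which reads were listed lowers to an unknown extent, since single reads were rarely listed. A single read beside reads in the other library was listed for 13 circRNAs, this one among them.

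**Figure D1:**
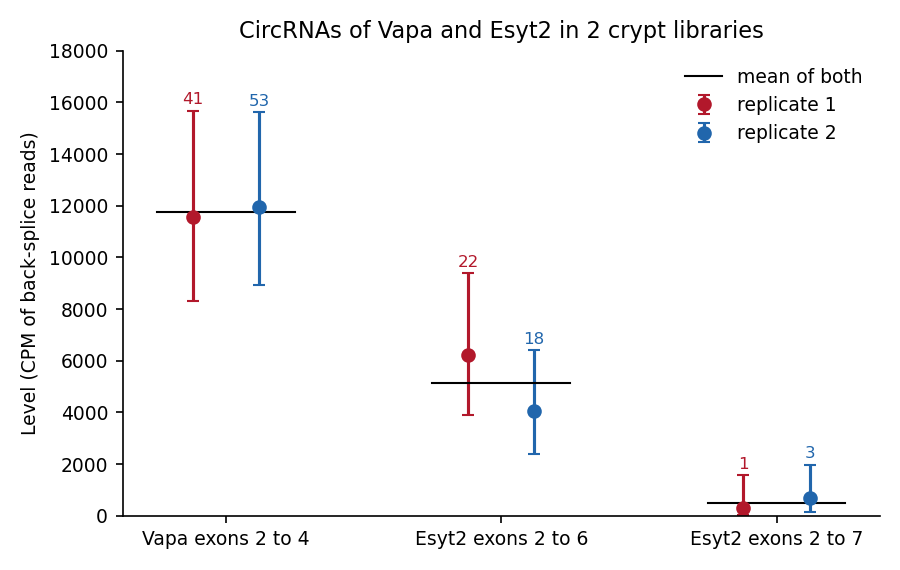
Level in CPM of back-splice reads (vertical axis) of the 3 circRNAs in replicate 1 (red) and replicate 2 (blue), with 95% exact Poisson intervals as bars, the number of reads above each bar and the mean of both libraries as a black line. Vapa exons 2 to 4 lies near 11748 CPM in both libraries, Esyt2 exons 2 to 6 near 5129 CPM with replicate 1 above replicate 2, and Esyt2 exons 2 to 7 near 479 CPM.

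The question that 2 libraries of 1 group can answer is whether reads repeated between them. None of the 3 circRNAs differed in an exact binomial test against the library totals, which compares these libraries and not conditions (0 of 3 called, 0 of 3 at an unadjusted p under 0.05), where 1.59% of all 1132 circRNAs were called at a Benjamini-Hochberg adjusted p under 0.05 and 106 had an unadjusted p under 0.05. For Vapa the ratio of replicate 1 to replicate 2 was 0.969 (95% exact interval 0.628 to 1.48, exact binomial adjusted p = 1). For Esyt2 exons 2 to 6 the ratio was 1.53 (0.784 to 3.03, exact binomial adjusted p = 0.442). For Esyt2 exons 2 to 7 it was 0.417 (0.00795 to 5.20, exact binomial adjusted p = 0.767), an interval too wide to say whether the level repeated. With 4 reads in total, this circRNA could not be called at any division of its reads. A circRNA of Vps13d with 4 and 0 reads had an exact binomial adjusted p of 0.427. The same limit held for all 739 circRNAs with 1 to 4 reads in total, which lowers the share of 1.59%. Among the 393 circRNAs with at least 5 reads, 19 were called.

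Read depth sets what these intervals can show. A sum of 40 reads or more was reached by 26 circRNAs, and 24 of them were seen in both libraries. For these 24 the absolute log2 ratio between libraries had a median of 0.31 and reached at most 1.00. The exact binomial test called 1 of them. The rest of the 26 had reads in 1 library only, among them CT010467.1 with 0 and 101 reads. The median and maximum therefore leave out the largest differences between libraries. Vapa, at 0.05, had the 7th smallest of the 24. Esyt2 exons 2 to 6, at 0.61, had the 18th smallest. The order is not taken at 1 depth, since Vapa had 94 reads and Esyt2 exons 2 to 6 had 40, the lowest number among those compared.

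Over all its circRNAs, Esyt2 had 23 reads in replicate 1 and 21 in replicate 2, a summed level of 5607 ± 1243 CPM (SD, n = 2). The circRNA of exons 2 to 6 held 40 of these 44 reads, or 90.9% (95% Clopper-Pearson interval 78.3 to 97.5%). Within the libraries its share was 95.7% (78.1 to 99.9%) in replicate 1 and 85.7% (63.7 to 97.0%) in replicate 2. The intervals of these shares overlap. Whether the balance of the isoforms differed between the libraries was not tested, and the longer isoform had few reads. Vapa, with its single circRNA, had 100% of 94 reads there (96.2 to 100%).

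The leading Vapa circRNA had more reads than the leading Esyt2 circRNA in each library, 41 against 22 in replicate 1 and 53 against 18 in replicate 2. The ratio of Vapa to Esyt2 was 1.86 in replicate 1 (95% exact interval 1.08 to 3.29) and 2.94 in replicate 2 (1.70 to 5.34). Because the genes were proposed for their levels, this order is a description.

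In the order of mean level, the neighbours of Vapa were a circRNA of Fam160b1 above it at 12652 ± 3244 CPM and CT010467.1, a feature in a ribosomal RNA gene, below it at 11371 ± 16081 CPM (SD, n = 2 each). The mean of Vapa minus that of Fam160b1 was -904 CPM, smaller in size than the SD of Fam160b1 but larger than the SD of Vapa, 263 CPM. Each SD rests on 2 libraries. CT010467.1 had 0 listed reads in replicate 1 and 101 in replicate 2, so its mean is no stable neighbour. Esyt2 exons 2 to 6 lay between Eed, a Polycomb subunit gene, at 5183 ± 949 CPM and Slc7a8, an amino acid transporter gene, at 5128 ± 72.7 CPM, and differed from neither beyond its own SD of 1521 CPM.

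**Figure D2:**
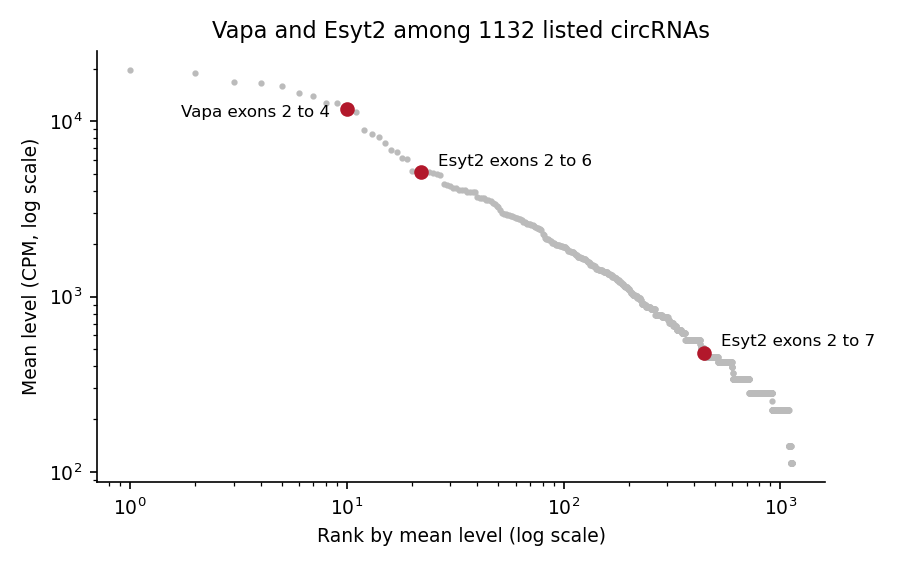
Mean level of both libraries in CPM (vertical axis, log scale) against rank (horizontal axis, log scale) for the 1132 listed circRNAs in grey, with the 3 circRNAs of Vapa and Esyt2 in red. Vapa exons 2 to 4 sits at rank 10, Esyt2 exons 2 to 6 at rank 22 and Esyt2 exons 2 to 7 at rank 444.

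The circRNAs whose levels were most like these were found by the Euclidean distance of log2(CPM + 1) over the 2 libraries. Nearest to Vapa were a single-exon circRNA of the Mediator subunit gene Med13l (52 and 58 reads, distance 0.367), Fam160b1 (53 and 46 reads, distance 0.423) and a circRNA of Rasa2, a gene for a GTPase-activating protein of RAS (48 and 69 reads, distance 0.443). Nearest to Esyt2 exons 2 to 6 were Esco1, an acetyltransferase gene of sister chromatid cohesion (21 and 19 reads, distance 0.103), Mlxipl, the gene of a carbohydrate-responsive transcription factor (20 and 19 reads, distance 0.158), and Enpep, the gene of a brush-border aminopeptidase (24 and 16 reads, distance 0.211). With 2 libraries the measure ranks circRNAs by level alone.

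All 3 circRNAs had both ends exactly at annotated splice sites, as did 1008 of the 1132 (89.0%). The Vapa gene lies at chromosome 17, 65578327 to 65613555, on the minus strand and covers 35229 bases. The circRNA took exons of 153, 104 and 81 bases from a span of 2764 bases, so its spliced length was 338 bases, or 12.2% of the span. Its ends matched 1 of 2 annotated transcripts, both of them protein-coding. The circularised exons lie together in the middle of the gene, behind an intron of 18165 bases and before an intron of 9537 bases.

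Esyt2 lies at chromosome 12, 116281196 to 116391050, on the plus strand and covers 109855 bases. Exons 2 to 6 measure 42, 135, 77, 73 and 90 bases, which gave a circRNA of 417 bases from a span of 6381 bases, 6.54% of it. Exon 7 raised the spliced length to 473 bases and the span to 16427 bases, since the intron between exons 6 and 7 is 9990 bases long. The shared intron before exon 2 is 36157 bases long, and the intron after exon 7 is 5290 bases long. The ends of each Esyt2 circRNA matched 3 of 8 annotated transcripts, among them both protein-coding ones.

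**Figure D3:**
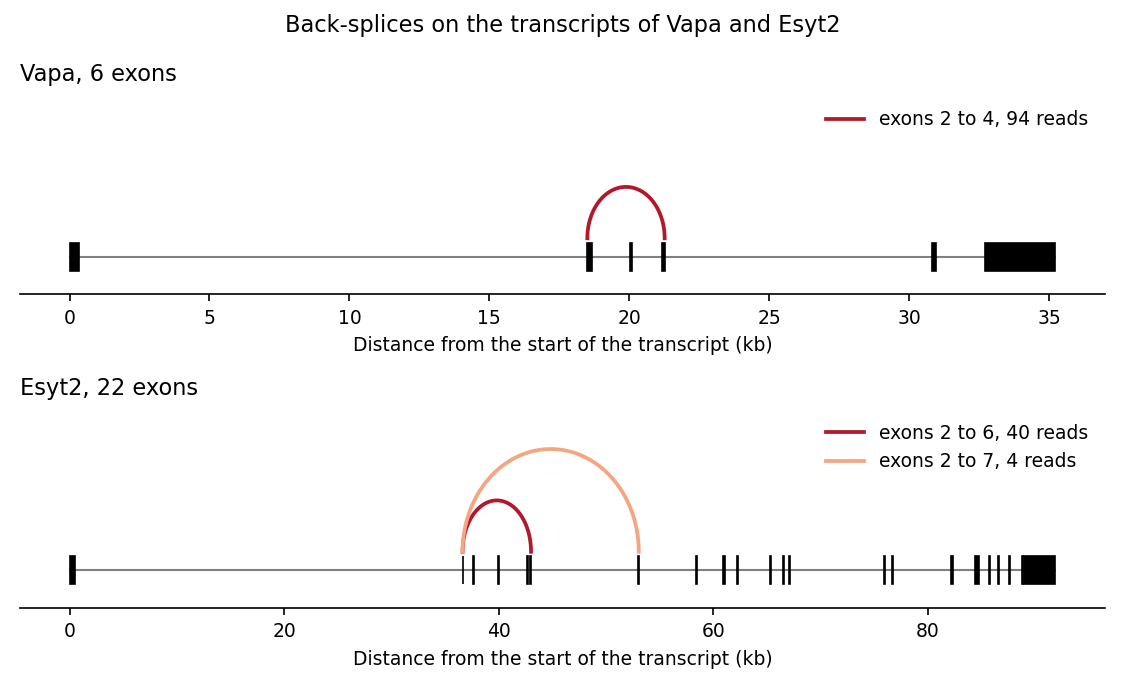
Exons (black boxes) and introns (grey line) of a Vapa and an Esyt2 transcript, drawn to scale in kb from the start of the transcript in the direction of transcription, with arcs joining the ends of each listed circRNA. The single Vapa arc (94 reads) covers exons 2 to 4 of 6, and the 2 Esyt2 arcs start at exon 2 of 22 and end at exon 6 (40 reads) or exon 7 (4 reads).

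A start at exon 2, after the first intron, was shared by all 3 and by 367 of the 1008 circRNAs at splice sites (36.4%, 95% Clopper-Pearson interval 33.4 to 39.5%). Exons 2 to 4, as in Vapa, were used by 104 of them, exons 2 to 6 by 32 and exons 2 to 7 by 16. Circles of 3 exons were the commoner kind (294), against 78 with 5 exons and 41 with 6. The spliced lengths of 338, 417 and 473 bases lay around the median of 368 bases (quartiles 290 and 501).

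The upstream intron of Esyt2 was longer than that of 88.1% of the 1008 circRNAs and the upstream intron of Vapa longer than that of 66.5%, where the median was 11221 bases. The downstream introns lay nearer to their median of 8216 bases, with 55.1% of circRNAs having a shorter one than Vapa, 56.3% than Esyt2 exons 2 to 6 and 38.1% than Esyt2 exons 2 to 7. The genomic span of Vapa exceeded that of 34.6% of the circRNAs, that of Esyt2 exons 2 to 6 that of 57.0%, and that of Esyt2 exons 2 to 7 that of 84.3%.

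**Figure D4:**
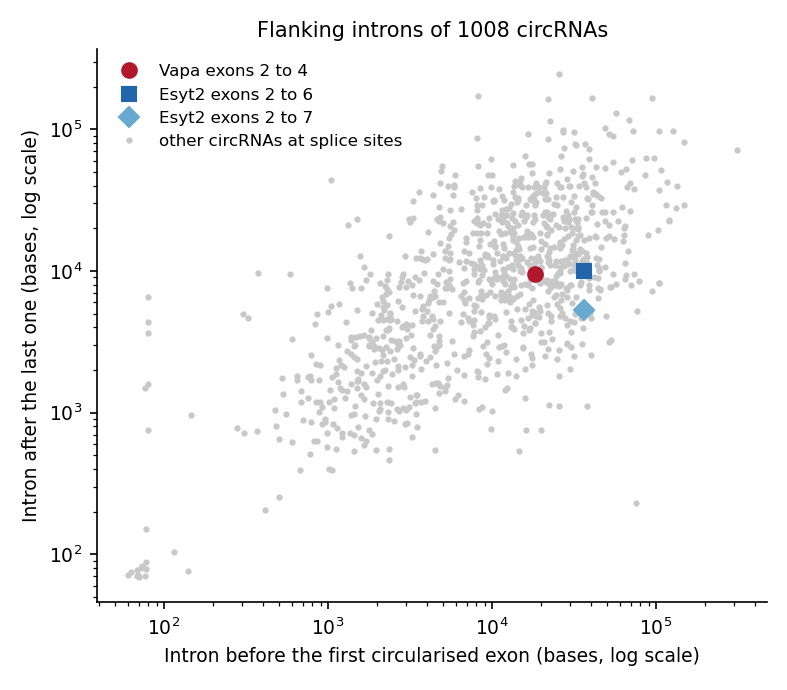
Length of the intron before the first circularised exon (horizontal axis, bases, log scale) against that after the last one (vertical axis, bases, log scale) for 1008 circRNAs at annotated splice sites, with Vapa as a red circle, Esyt2 exons 2 to 6 as a dark blue square and Esyt2 exons 2 to 7 as a light blue diamond. Both Esyt2 circRNAs share the upstream intron of 36157 bases and differ in the downstream one, 9990 against 5290 bases.

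The GC content of the circles lay under the median of the table. It was 40.2% for Vapa, 42.2% for Esyt2 exons 2 to 6 and 42.7% for Esyt2 exons 2 to 7, against a median of 48.8% over the 1008 circles (quartiles 44.7 and 53.3%). Lower GC was found in 5.95%, 13.8% and 15.7% of the circles. The Esyt2 circles share all but exon 7, so they are not separate cases, and no test was made.

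All bases of the 3 circles are coding in the linear mRNA, as in 822 of the 1008 circles (81.5%). The Vapa circle carries codons 27 to 139 of 249, the amino-terminal side of the protein where the MSP domain lies, and not the tail anchor at the other end. The Esyt2 circles carry codons 111 to 249 and 111 to 268 of 845, and not the C2 domains, which lie farther along. A codon here belongs to the annotated frame of the transcript, and no data on translation were used.

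The spliced length sets whether that frame closes on itself. The 417 bases of Esyt2 exons 2 to 6 are a multiple of 3, as in 282 of the 822 wholly coding circles (34.3%), and the annotated frame ran round this circle with no stop codon and with 3 ATG codons in frame. Exon 7, with its 56 bases, shifts the frame, and in the longer Esyt2 circle the frame met a TAA that starts after 34 bases of exon 2, inside the capitals printed for that join. In the Vapa circle of 338 bases the frame met a TAG that starts after 15 bases of exon 2, directly after an ATG, and this is also visible in the capitals of its join. The frame of the leading Esyt2 circle thus differed from that of the other 2 circles, which is a property of the annotated sequence and not of the reads.

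Isoforms that share the start of a circle were also found in other genes. Among circRNAs at splice sites, 97 pairs of the same host shared the exon start used at the join, in 69 of 767 hosts, and 46 of the pairs began at exon 2, like those of Esyt2. In 50 of the 97 the number of the last exon was higher by 1 in the longer circRNA, as in Esyt2. Exons were numbered in the transcript matched to each circRNA, which can differ within a pair. The shorter circRNA had more reads in 47 pairs, the longer in 39 and they were equal in 11. The shorter Esyt2 circRNA had 40 reads and the longer 4, and in 10 of the 97 pairs, Esyt2 among them, the shorter had at least 10 times the reads of the longer. The reverse, with at least 10 times the reads in the longer, was also seen in other pairs and was not counted. Some hosts gave several pairs, so the 97 are not separate cases.

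Genes of the same families and pathways were then set beside Vapa and Esyt2. The paralogs Vapb, Esyt1 and Esyt3 had no listed circRNA, nor did the MSP-domain genes Mospd1, Mospd2 and Mospd3. A gene that is not listed may still have reads under the limit at which circRNAs were listed, so nothing follows on its expression. Of 103 multi-exon protein-coding genes of contact sites and ER shape, 10 (9.71%) hosted a listed circRNA, where 3.96% of 20620 multi-exon protein-coding genes did. Without Vapa and Esyt2, which were proposed because they are hosts, 8 of 101 (7.92%) did. The list too was chosen with earlier results of these data known, and it was not tested against other genes.

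The 8 other hosts had few reads, with a median of 2.5 per gene and 27 in all. Over all 1132 listed circRNAs the median was 3 reads per circRNA (quartiles 2 and 6), so few reads were not particular to these hosts. Vapa and Esyt2 were selected on high levels, so their higher counts are no result. Vps13d, the gene of a bridge-like lipid transfer protein, had 2 circRNAs, with 7 reads in replicate 1 and 3 in replicate 2, and its circRNA of exons 66 to 67 of 70 had 3 reads in each library. Atg2b, a lipid transfer gene of autophagosome growth, and Rmdn3, the gene of the mitochondrial VAP partner PTPIP51, had 2 reads in replicate 1 and 0 in replicate 2. Sacm1l, which encodes the phosphoinositide phosphatase SAC1, had 2 and 0 reads as well. Snx2, a sorting nexin gene whose product binds VAP, Rab3gap1, a subunit gene of an exchange factor for RAB18, and Lnpk, the lunapark gene of ER tubule junctions, had 0 reads in replicate 1 and 3 in replicate 2, and Fam126a, the gene of hyccin in a lipid kinase complex at the plasma membrane, had 0 and 2. Apart from Vapa and Esyt2, Vps13d was the only gene on the list with a circRNA listed in both libraries, so that 3 of the 103 genes had one, or 1 of 101 without Vapa and Esyt2, where 1.35% of the 20620 genes did.

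By role, 1 of 5 VAP and MOSPD genes and 1 of 3 extended synaptotagmins were hosts, namely Vapa and Esyt2 themselves. Those genes were chosen as hosts, so these shares are no result on their families. Hosts were also 2 of 28 lipid transfer genes and 1 of 17 tethers to mitochondria and peroxisomes. Of endosomal and other VAP partners 4 of 16 were hosts, and of ER shape genes 1 of 17. Over all multi-exon protein-coding genes the share was 3.96%, and no role was tested. Another 17 genes encode other tethers between the ER and the plasma membrane or act in store-operated calcium entry, Stim1 and Orai1 among them. Of these, 0 hosted a listed circRNA.

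**Figure D5:**
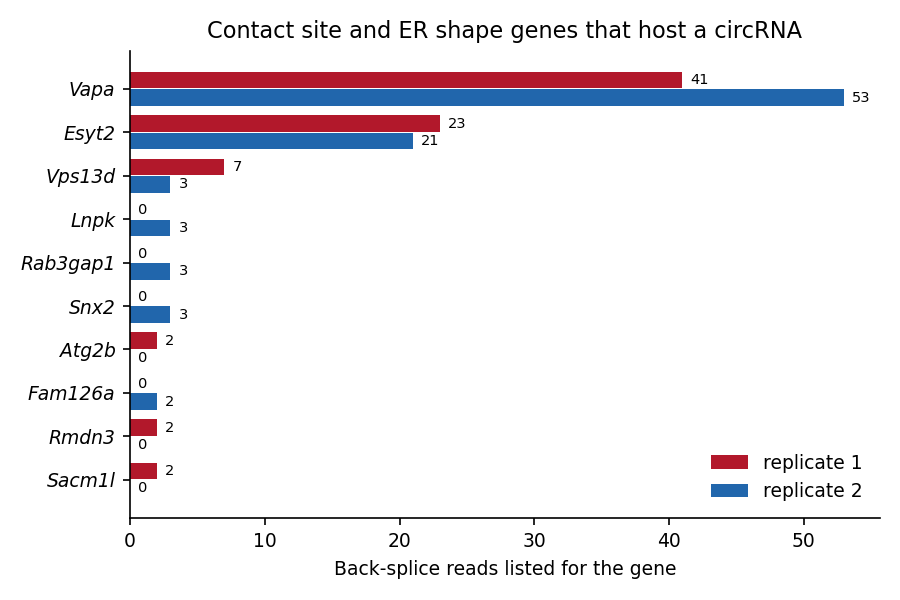
Back-splice reads listed per gene (horizontal axis) in replicate 1 (red) and replicate 2 (blue) for the 10 genes of contact sites and ER shape that host a circRNA, summed over the circRNAs of each gene. Vapa (41 and 53 reads) and Esyt2 (23 and 21) stand above Vps13d (7 and 3), and the other genes have 2 or 3 reads in 1 library.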

How the data were processed

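Libraries of crypt total RNA were prepared and sequenced with MGI chemistry, per the labels' protocols. The build was mm10, as the submitters' processing notes name it. The sources used here do not give the aligner, circRNA caller or filters. The deposited table gave raw counts of back-splice reads, whole numbers per the file headers. It also gave values headed CPM, deposited as a normalised signal in which 1 read is worth 272 in replicate 1 and 233 in replicate 2; these were used as an alternative. All columns of sample values were used.

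CPM levels were taken over the listed reads. The listed totals are not the sequencing depth. Listing appears to have needed about 2 reads in a library, since only 1 of 373 circRNAs with a sum of 2 reads had them divided between the libraries, although 41 had a single read. Ends were matched to GENCODE M21, on the same build, requiring an internal exon start and end of 1 transcript, and named, protein-coding, basic transcripts with the longest coding sequence were preferred. Sequences came from its transcripts. Libraries were compared with the two-sided exact binomial test (scipy 1.17.1) with Benjamini-Hochberg adjustment over 1132 circRNAs at 0.05. The test was run on simulated libraries with counting error alone, and high detection of changes was required only at far deeper counts. Alternatives used edgeR 4.0.16, DESeq2 1.42.0 size factors, a minimum of 5 reads, other pseudocounts and each library alone.

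The members and the gene lists were chosen with earlier results of these data known. Genes named are the members and their paralogs, the hosts on the contact site list, the 3 nearest circRNAs by level and the rank neighbours. Mospd1 to Mospd3, Stim1 and Orai1 were named in addition. Of 109 symbols on that list, 103 were multi-exon protein-coding genes of the annotation.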

Additional observations from a re-analysis of the deposited data

How the results depend on the processing

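Of 64 recomputed values, 56 were scored as unchanged, by call for ratios, spread between libraries for levels and ranks, interval for shares and a fold limit for counts. Many could not have been scored otherwise. A level in 1 library always lies within that spread of the mean, and the single Vapa circRNA always holds all reads of its gene. Another pseudocount leaves the test as it is, and the deposited CPM gave the same levels as the edgeR factors. With circRNAs of at least 5 reads in total, the leading and the summed level of Vapa were 15380 CPM and the leading level of Esyt2 was 6720 CPM, because the library totals shrink. Leaving out 1 library at a time gave ranks of 8 to 10 for Vapa and 18 to 36 for Esyt2. The contact site genes that host a circRNA numbered 3 with circRNAs in both libraries or with at least 5 reads, and 6 to 7 in 1 library alone. The circRNAs called between libraries numbered 15 of 1132 with edgeR factors and 12 of 1132 with DESeq2 size factors. With at least 5 reads in total they numbered 19 of 393, a setting that leaves out Esyt2 exons 2 to 7. In each setting 0 of the Vapa and Esyt2 circRNAs tested were called. No log2 ratio of the 3 changed sign under another scaling. No paired analysis was possible because there is only 1 group. The 94, 40 and 4 reads of Vapa and both Esyt2 circRNAs limit the precision of their levels. PCR copies and differences between animals were not measured.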
